A study of Mus musculus with 15 samples.

Results

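The genes described here are those that the authors listed for a differently spliced cassette exon in embryonic forelimb, apart from 25 named genes that were set aside. A cassette exon is an internal exon that is either included in the mature RNA or skipped, so that 1 gene makes a longer and a shorter form. The authors' list held 98 events in 84 genes, and 64 events in 59 genes remained by this rule. By function most of them belong to chromatin and transcription, membrane traffic, the cytoskeleton or metabolism. At every listed event the share of RNA with the exon differed by at least 10 percentage points between wild type (WT) and mutant. The authors' adjusted p was under 0.05 at each. Of the ranks up to the highest listed, 89 are not listed, and whether a further limit applied cannot be told from the listed values. The members were thus selected on the inclusion contrast itself, so the inclusion values below are a description without a test.

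Forelimb RNA came from female mouse embryos at day 15, 3 of them WT and 3 homozygous for the Mbnl3 ΔE2 allele (Mbnl3 ΔE2/ΔE2), and was sequenced after selection of poly(A) RNA. The allele is named for exon 2, and the series title calls these mice knockouts of an isoform. In HITS-CLIP, ultraviolet light joins protein and RNA, an antibody (here Mb3/7) brings both down, and the RNA is sequenced as short tags. HITS-CLIP was used here to look for RNA bound by Mbnl3. It was done on 3 WT and 3 ΔE2 forelimb samples of the BL6 strain at the same age, each of 4 forelimbs from 2 embryos, and on 3 cultures of C2C12, a mouse myoblast line, whose tags were deposited in combined form. The exon table holds 1 total per genotype over the embryos, so it carries no spread between animals. Its header names another muscleblind gene, Mbnl2, beside the mutant totals, although the table is deposited as WT against Mbnl3 knockout, and these totals are called the knockout column here. The level of Mbnl3 in each RNA sample was not analysed here. In whole forelimb RNA, fewer cells of a type and less RNA per cell cannot be told apart.

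Muscleblind proteins bind clusters of short motifs in pre-mRNA in which a GC pair lies between pyrimidines. In textbook accounts, binding in the intron downstream of a cassette exon tends to favour the exon, and binding upstream of it or within it tends to favour skipping. The muscleblind family is best known for the switch from fetal to adult exons in muscle, heart and brain, and for its capture by repeat RNA in myotonic dystrophy.

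Inclusion was computed as the mean number of tags over the junctions on either side of the exon, divided by that mean plus the tags of the junction that skips the exon. The intervals given with it are exact binomial (Clopper-Pearson) 95% intervals on the rounded tags and cover counting error only. Positions are those listed by the authors in mm9 and run from the exon before the cassette exon to the exon after it. Members had from 17 to 742.5 such tags in WT (median 113.5) and from 44.97 to 1372 in the knockout column (median 191), and 30 of the 64 events had fewer than 100 in WT. The knockout column held a median of 1.68 times the WT tags for members and 1.66 times over all 98 events.

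By rank and adjusted p, the authors' deposited table came from about 2834 tested events, of which 3.46% were listed. Of the 64 member events, 36 had higher and 28 had lower inclusion in the knockout column. That is 56.2% and 43.8% of them, beside 54.1% and 45.9% of all 98 listed events. The change ran from 10.1 to 38.1 percentage points in size, with a median of 14.7 points, and 12 events changed by at least 20 points. In the 34 events of the 25 genes set aside, the median size was 25.02 points, and 20 events reached 20 points. The median change was 14.03 points among the gains and -15.1 points among the losses. At 35 of the 64 events the interval in WT did not overlap that in the knockout column, as at 57 (58.2%) of all 98 listed events. The 50% line was crossed by 11 exons, 6 of them upward and 5 downward, and by 24 (24.5%) of all 98 listed events. These crossings are of the values alone. Both intervals of Lef1 lay clear of 50%, but Ss18, Vkorc1l1 and Luzp1, among others, had an interval that included it. Adjusted p-values in the authors' deposited table ran from 8.16e-28 to 0.0498 for the members.

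**Figure D1:**
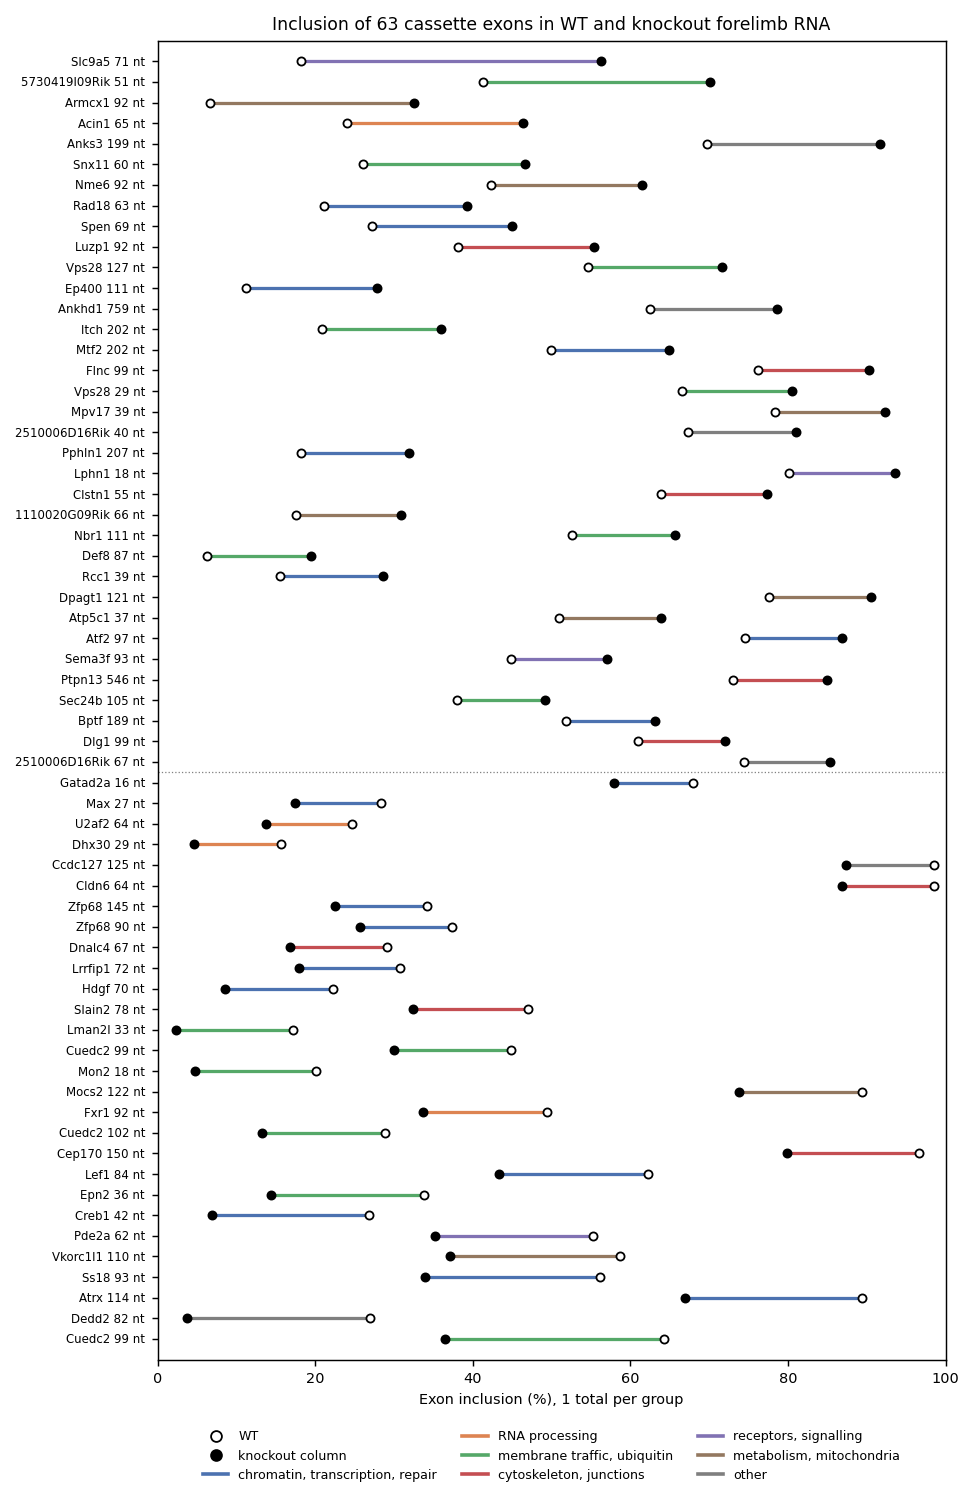
Inclusion of 63 of the 64 member exons in percent, with WT as open and the knockout column as filled points, 1 total per group. Lines join the values of an exon and are coloured by the function of its gene. The 35 exons above the dotted line had higher and the 28 below it lower inclusion in the knockout column, and most lines span 10 to 20 points.

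Chromatin, transcription and repair formed the group with the most members, 17 genes with 18 events, of which 8 had higher and 10 had lower inclusion in the knockout column. The exon of Atrx, a chromatin remodeller (chrX:103075247-103083177, minus strand), was included at 89.4% (interval 79.4% to 95.6%) in WT and 66.9% (56.8% to 75.6%) in the knockout column. It gave 83.4 upstream, 34.8 downstream and 7.02 skipping tags in WT and 109, 32.2 and 34.9 in the knockout column, and the exon measures 114 nt. Ss18, a subunit of the BAF remodelling complex, had a 93-nt exon included at 56.1% (interval 41.1% to 71.1%) in WT and 33.9% (26.6% to 41.4%) in the knockout column. The value crossed the 50% line downward, but the WT interval includes 50%. Its tags were 14.03 upstream, 37.03 downstream and 19.97 skipping tags in WT and 32.3, 82.3 and 112 in the knockout column. Creb1, the transcription factor that answers cyclic AMP (chr1:64605076-64612890, plus strand), had a 42-nt exon at 26.8% (interval 16.6% to 39.7%) in WT and 6.91% (2.77% to 15.4%) in the knockout column. Its tags were 16.3 upstream, 17.3 downstream and 45.7 skipping tags in WT and 3.06, 8.06 and 74.9 in the knockout column. Lef1, a DNA-binding effector of Wnt signalling (chr3:130892252-130896168, plus strand), included its 84-nt exon at 62.2% (interval 53.1% to 70.4%) in WT and 43.3% (37.5% to 49.3%) in the knockout column. Like that of Ss18, the Lef1 exon crossed the 50% line downward, with 80.3 upstream, 80.3 downstream and 48.7 skipping tags in WT and 93.9, 154 and 162 in the knockout column.

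The deepest of all members was Hdgf, a chromatin-associated growth factor (chr3:87717234-87718158, plus strand). Its 70-nt exon was included at 22.3% (interval 19.3% to 25.4%) in WT and 8.54% (7.11% to 10.1%) in the knockout column, on 181 upstream, 150.0 downstream and 577 skipping tags in WT and 124, 111 and 1254 in the knockout column. Its adjusted p in the authors' deposited table, 8.16e-28, was the smallest of any member, while its change of -13.7 points was near the median of the losses. Smaller losses in this group were those of Lrrfip1, a transcriptional repressor (30.7% and 17.9% in WT and the knockout column), Max and Gatad2a. Max, the partner of Myc, stood at 28.3% (interval 22.2% to 35.3%) in WT and 17.5% (13.6% to 21.9%) in the knockout column. Gatad2a, a subunit of the NuRD complex, stood at 68.01% (interval 62.2% to 73.3%) in WT and 57.9% (53.6% to 62.1%) in the knockout column, and its change was -4.82 points from the downstream junction alone. The exon of Gatad2a, 16 nt long, is the shortest of all members. Zfp68, a zinc finger gene, had a pair of listed events that share the downstream junction and the skipping junction and differ in the start of the exon, by 145 or 90 nt of exon. The longer form stood at 34.2% (interval 26.5% to 42.7%) in WT and 22.5% (17.7% to 28.3%) in the knockout column. The shorter form stood at 37.4% (interval 29.6% to 45.6%) in WT and 25.7% (20.4% to 31.2%) in the knockout column. These are not independent, since the same 94.3 WT skipping tags enter both.

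Gains in the nuclear group were led by Rad18, a ubiquitin ligase of DNA damage tolerance (chr6:112570652-112594740, minus strand), with 21.1% (interval 11.7% to 33.2%) in WT and 39.2% (29.1% to 50.3%) in the knockout column for a 63-nt exon. Spen, a corepressor that binds RNA (chr4:141032396-141039739, minus strand), followed with 27.2% (interval 17.6% to 37.8%) in WT and 44.96% (35.2% to 55.3%) in the knockout column for 69 nt. In both genes the intervals of the 2 genotypes overlapped. Ep400, the ATPase of a histone acetyltransferase complex (chr5:111170988-111185784, minus strand), had its 111-nt exon at 11.3% (interval 7.08% to 17.4%) in WT and 27.8% (22.3% to 34.2%) in the knockout column, with no overlap of the intervals. The remaining gains were those of Mtf2, a Polycomb accessory protein (49.97% and 64.9%), Pphln1, a component of the HUSH silencing complex (18.2% and 31.9%), Rcc1, the exchange factor of Ran (15.6% and 28.6%), Atf2, a leucine zipper factor (74.6% and 86.8%), and Bptf. Bptf, the largest subunit of the NURF remodeller, stood at 51.8% (interval 43.99% to 59.5%) in WT and 63.1% (55.8% to 69.9%) in the knockout column. In this group 13 of 18 events had an exon whose length is a multiple of 3.

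RNA processing was represented by 4 genes, with 1 gain and 3 losses, and no exon among them had a length that is a multiple of 3. Acin1, a protein of the exon junction complex (chr14:55270553-55272518, minus strand), had the gain, with a 65-nt exon included at 24.04% (interval 14.9% to 35.3%) in WT and 46.4% (38.1% to 54.7%) in the knockout column. Its tags were 12.3 upstream, 23.9 downstream and 57.1 skipping tags in WT and 61.8, 76.3 and 79.7 in the knockout column. Fxr1, an RNA-binding relative of the fragile X protein that striated muscle needs (chr3:33963040-33968258, plus strand), included a 92-nt exon at 49.4% (interval 43.2% to 55.7%) in WT and 33.7% (29.7% to 38.1%) in the knockout column. In each of these genes the WT interval did not overlap that of the knockout column. U2af2, the large subunit of the factor that binds the polypyrimidine tract before a 3′ splice site, had an exon of 64 nt at 24.7% (interval 19.02% to 31.2%) in WT and 13.8% (10.8% to 17.1%) in the knockout column. Dhx30, an RNA helicase, had one of 29 nt at 15.6% (interval 8.67% to 24.5%) in WT and 4.55% (1.897% to 9.38%) in the knockout column. For both of these the exon was included in a minority of the RNA in either genotype.

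Membrane traffic and protein turnover held 11 genes with 14 events, 8 of them higher and 6 lower in the knockout column. The gain of 5730419I09Rik, now called C2cd5, a C2-domain protein of insulin-stimulated vesicle traffic (chr6:142966402-142977765, minus strand), was between 41.3% (interval 25.5% to 59.2%) in WT and 70.04% (54.8% to 83.2%) in the knockout column. It rests on 24.9 upstream, 4.88 downstream and 21.1 skipping tags in WT and 47.5, 15.5 and 13.5 in the knockout column, and the intervals overlapped. Snx11, a sorting nexin of endosomes (chr11:96635754-96638374, minus strand), included its 60-nt exon at 26.1% (interval 16.9% to 38.6%) in WT and 46.6% (36.5% to 56.7%) in the knockout column. Vps28, a subunit of the ESCRT-I complex that sorts ubiquitinated cargo (chr15:76454877-76455634, minus strand), had a pair of listed events with the same downstream and skipping junctions. Its 127-nt exon form stood at 54.6% (interval 47.9% to 61.2%) in WT and 71.6% (66.3% to 76.6%) in the knockout column, and its 29-nt form at 66.5% (interval 61.02% to 71.8%) in WT and 80.6% (76.7% to 84.2%) in the knockout column. The upstream junctions alone separate the forms, with 48.9 WT tags for the longer and 212 for the shorter. Neither length is a multiple of 3. Itch, a ubiquitin ligase, had a 202-nt exon at 20.8% in WT and 35.97% in the knockout column. Nbr1, a receptor of selective autophagy (52.5% and 65.7%), Def8 (6.29% and 19.4%) and Sec24b had the other gains. Sec24b, a cargo-binding subunit of the COPII coat, stood at 37.9% (interval 30.7% to 45.6%) in WT and 49.2% (43.5% to 54.9%) in the knockout column.

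Losses in this group were led by Cuedc2, a gene for a ubiquitin-binding CUE-domain protein (chr19:46407107-46413087, minus strand), with 3 listed events over the same span. All 3 share the upstream junction and differ by a few bases at the 5′ splice site of the exon or at the next 3′ splice site. The event with the fewest tags stood at 64.3% (interval 48.03% to 78.4%) in WT and 36.4% (25.6% to 48.5%) in the knockout column, the largest loss of all members. The other 99-nt event had 44.8% (interval 34.4% to 55.3%) in WT and 29.96% (23.7% to 37.1%) in the knockout column, and the 102-nt event 28.9% (interval 18.8% to 40.6%) in WT and 13.2% (8.06% to 19.2%) in the knockout column. The downstream junction alone gave the 102-nt event a change of -3.36 points. The shared upstream junction had 37.96 tags in WT and 35.5 in the knockout column, so the losses are not 3 separate measurements. Epn2, an epsin of clathrin-coated pits (chr11:61347072-61348884, minus strand), included its 36-nt exon at 33.8% (interval 23.2% to 46.9%) in WT and 14.3% (8.303% to 22.7%) in the knockout column. Mon2, a scaffold of the Golgi and endosomes (chr10:122446558-122447692, minus strand), included an 18-nt exon at 20.1% (interval 9.58% to 34.6%) in WT and 4.76% (0.962% to 12.9%) in the knockout column. Lman2l, a cargo lectin of the early secretory pathway (chr1:36485144-36495676, minus strand), had a 33-nt exon at 17.1% (interval 9.98% to 26.8%) in WT and 2.31% (0.471% to 6.498%) in the knockout column. This exon was close to absent in the knockout column, on 14.9 upstream, 14.9 downstream and 72.1 skipping tags in WT and 4.06, 2.06 and 129 in the knockout column. In this group 11 of 14 events had an exon length that is a multiple of 3.

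Cytoskeleton and cell junctions gave 10 genes with 1 event each, 6 higher and 4 lower. Luzp1, a leucine zipper protein of actin filaments and the centrosome (chr4:136077255-136096962, plus strand), had a 92-nt exon at 38.1% (interval 28.8% to 48.1%) in WT and 55.4% (47.5% to 63.1%) in the knockout column. The value crossed the 50% line upward, but the interval in the knockout column includes 50%. Flnc, the filamin of striated muscle, included a 99-nt exon at 76.2% (interval 70.2% to 81.8%) in WT and 90.2% (86.9% to 92.97%) in the knockout column. The adjusted p in the authors' deposited table was 0.000228 for Flnc. Clstn1, a calsyntenin that links cargo to kinesin (63.9% and 77.3%), had a gain of 3.08 points by its upstream junction alone and 9.73 points by the downstream one. Ptpn13, a phosphatase with FERM and PDZ domains, stood at 73.03% (interval 65.8% to 79.6%) in WT and 84.96% (79.5% to 89.4%) in the knockout column. With the junctions summed and exon-body tags added, its change was 3.49 points. Dlg1, a membrane-associated scaffold, stood at 60.99% (interval 55.3% to 66.5%) in WT and 72.1% (68.1% to 75.7%) in the knockout column. Dlg1 was the only member on a list of 49 muscleblind targets known from other work, and its 99-nt exon had 192 upstream, 184 downstream and 120.3 skipping tags in WT and 388, 425 and 158 in the knockout column. Cep170, a centrosomal protein (chr1:178688527-178699656, minus strand), had an exon of 150 nt at 96.6% (interval 90.1% to 99.7%) in WT and 79.8% (71.5% to 86.6%) in the knockout column. In WT, 2.396 tags skipped that exon, against 24.1 in the knockout column. Slain2, a protein of growing microtubule ends, stood at 46.9% (interval 39.6% to 54.2%) in WT and 32.4% (27.8% to 37.3%) in the knockout column. Dnalc4, now Dnal4, a dynein light chain (29.1% and 16.7%), and Cldn6, a claudin of tight junctions (98.5% and 86.9%), had the other losses. In Cldn6, 1 WT tag skipped the exon.

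Receptors, transport at the cell surface and signalling gave 4 genes, 3 higher and 1 lower. Slc9a5, a sodium-proton exchanger of the plasma membrane (chr8:107881293-107882402, plus strand), had the largest gain of all members, 18.2% (interval 3.799% to 43.4%) in WT and 56.3% (41.1% to 71.1%) in the knockout column for a 71-nt exon. It was also the event with the fewest WT tags, and the intervals overlapped. Its tags were 4.09 upstream, 2.09 downstream and 13.9 skipping tags in WT and 27.9, 23.9 and 20.1 in the knockout column, and its adjusted p in the authors' deposited table was 0.0269. Lphn1, now Adgrl1, the adhesion receptor latrophilin, included an 18-nt exon at 80.1% (interval 73.6% to 85.3%) in WT and 93.6% (90.5% to 96.1%) in the knockout column. Sema3f, a secreted guidance cue, stood at 44.9% (interval 38.6% to 51.1%) in WT and 57.00% (52.5% to 61.4%) in the knockout column for a 93-nt exon. Its change was 16.9 points from the upstream junction alone and 3.21 points from the downstream one. The loss was that of Pde2a, a phosphodiesterase of cyclic nucleotides (chr7:108599915-108629973, plus strand), with 55.3% (interval 41.5% to 68.3%) in WT and 35.2% (25.4% to 45.9%) in the knockout column for 62 nt.

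Metabolism and mitochondria gave 8 genes with 1 event each, 6 higher and 2 lower, and 2 of these exons had a length that is a multiple of 3. Armcx1, an armadillo-repeat protein of the outer mitochondrial membrane (chrX:131252525-131253530, plus strand), had an exon of 92 nt at 6.61% (interval 1.62% to 20.9%) in WT and 32.5% (21.01% to 46.3%) in the knockout column. This gain lay in the upstream junction alone, since the tags were 4.08 upstream, 1.01 downstream and 35.9 skipping tags in WT and 36.2, 1.08 and 38.8 in the knockout column. Nme6, a nucleoside diphosphate kinase family member (chr9:109735709-109742223, plus strand), had a 92-nt exon at 42.3% (interval 29.9% to 55.2%) in WT and 61.5% (50.97% to 71.2%) in the knockout column. Its junctions were also uneven, with 5.98 upstream, 48.1 downstream and 36.9 skipping tags in WT and 8.89, 109 and 36.9 in the knockout column. Mpv17, an inner mitochondrial membrane protein (78.3% and 92.3%), 1110020G09Rik, now Nadk2, the mitochondrial NAD kinase (17.5% and 30.9%), Dpagt1, the enzyme that starts N-glycan assembly (77.6% and 90.5%), and Atp5c1, the gamma subunit of ATP synthase (50.99% and 63.8%), had the other gains. Losses were those of Vkorc1l1, a paralogue of vitamin K epoxide reductase (chr5:130418031-130458267, plus strand), at 58.7% (interval 38.9% to 76.5%) in WT and 37.1% (23.4% to 51.7%) in the knockout column, and of Mocs2, a subunit of molybdopterin synthase (chr13:115608484-115611153, plus strand), at 89.4% (interval 83.8% to 93.5%) in WT and 73.8% (67.9% to 79.3%) in the knockout column. The Vkorc1l1 intervals overlapped and those of Mocs2 did not.

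The other 5 genes held 6 events, 4 higher and 2 lower. Anks3, an ankyrin-repeat protein tied to cilia (chr16:4957733-4964308, minus strand), included a 199-nt exon at 69.7% (interval 54.6% to 81.7%) in WT and 91.7% (82.7% to 96.9%) in the knockout column. Ankhd1, with ankyrin repeats and a KH domain, had the longest exon of all members, 759 nt, at 62.4% (interval 54.6% to 69.8%) in WT and 78.6% (73.8% to 82.9%) in the knockout column. With the junctions summed and exon-body tags added, its change was 4.39 points. 2510006D16Rik, now Tmem234, a transmembrane protein, had a pair of events with the same downstream and skipping junctions, at 67.3% (interval 60.5% to 73.3%) in WT and 81.1% (76.5% to 84.9%) in the knockout column for 40 nt. The 67-nt event stood at 74.4% (interval 68.7% to 79.3%) in WT and 85.4% (81.8% to 88.4%) in the knockout column. Dedd2, a death-effector domain protein (chr7:25987858-25996316, minus strand), had an 82-nt exon at 26.98% (interval 15.3% to 40.3%) in WT and 3.76% (1.15% to 10.3%) in the knockout column, on 14.9 upstream, 13.9 downstream and 39.1 skipping tags in WT and 4.09, 3.09 and 91.9 in the knockout column. Among all members only the Lman2l exon was included less in the knockout column. Ccdc127 stood at 98.5% in WT and 87.4% in the knockout column, with 1.495 skipping tags in WT.

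Members just inside the limit of 10 points were Gatad2a at -10.1, Max and U2af2 at -10.9, 2510006D16Rik (67 nt) at 10.9 and Dhx30 at -11.0 points. Of the adjusted p-values in the authors' deposited table, the one nearest to 0.05 among members was 0.0498, for Spen. Events outside either limit are not in the table, so no value just outside can be set beside these.

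The change in inclusion was also computed from each junction alone, since the junctions on either side of an exon should be equally common where the exon has no other neighbours. With the upstream junction alone, 64 of 64 changes kept their direction, and 52 of those were still at least 10 points. With the downstream junction alone, 63 of 64 kept it, and 50 were still at least 10 points. The exception was Armcx1, whose downstream junction gave -0.0245 points against 38.1 points from the upstream one. The upstream and downstream tags of an exon lay more than 3-fold apart in both columns at 13 events, Armcx1, Nme6 and the 40-nt event of 2510006D16Rik among them. In Ccdc127 the upstream junction had 3.76 tags in WT and the downstream one 189.5, so its inclusion comes almost wholly from 1 side. Anks3 had 0.09704 upstream and 68.2 downstream tags in WT. The size of the change moved by over 1.5 times at 10 events with the upstream junction alone and at 14 with the downstream one. A further alternative added the tags that lie within the exon to the sum of both junctions, in place of their mean. The effect of the exon-body tags alone was not separated. This alternative kept the direction of 64 of 64 changes, but 45 were then at least 10 points, and 22 moved by over 1.5 times. The lowest of these, under 5 points, were those of Ptpn13 and Ankhd1 given above, and Ccdc127 and Cldn6 then stood at -5.75 and -5.72 points. Whether such exons begin or end at further sites was not tested.

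**Figure D2:**
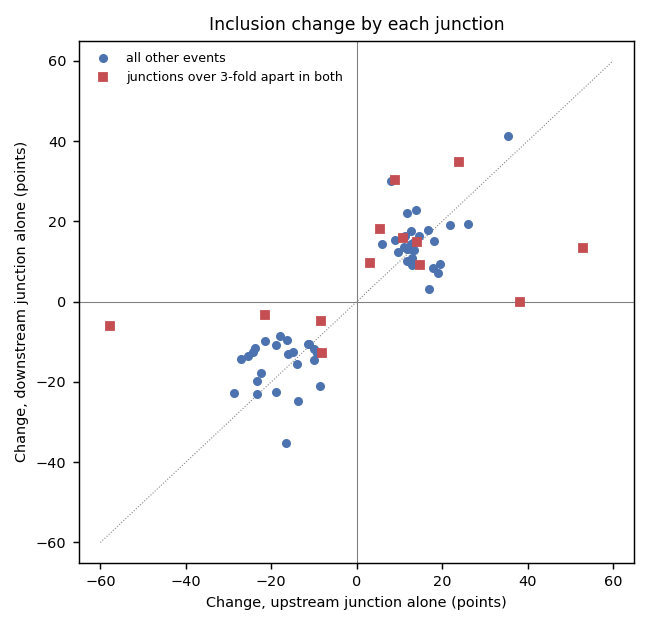
Change in inclusion in percentage points (knockout column minus WT) from the upstream junction alone (horizontal axis) and the downstream junction alone (vertical axis), 1 point per event. Squares mark the 13 events whose junctions lie over 3-fold apart in both columns, and the dotted line marks equal changes. Points fall in the upper right or lower left of the plot, except Armcx1, which lies at 38.1 on the horizontal axis and just under 0 on the vertical one.

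Exon length was not used to choose the members. Member exons measured 16 to 759 nt with a median of 87 nt, and 13 events had an exon under 50 nt. The exons of the genes set aside measured 18 to 231 nt with a median of 75 nt. A length that is a multiple of 3 leaves the reading frame as it is where the exon lies in coding sequence, which was not looked up here, and it was found at 35 of 64 member events. That is 54.7% (95% exact binomial interval 41.7% to 67.2%), beside 24 of 34 events or 70.6% (52.5% to 84.9%) in the genes set aside, and these intervals overlap. The shares of gains and losses had overlapping intervals, with 20 of 36 gains (55.6%, interval 38.1% to 72.1%) and 15 of 28 losses (53.6%, 33.9% to 72.5%). By function the counts ran from 0 of 4 events in RNA processing and 2 of 8 in metabolism to 13 of 18 in the nuclear group and 11 of 14 in membrane traffic, 3 of the latter from Cuedc2. The introns on either side had a median of 1508 nt upstream (97 to 36153 nt) and 1774.5 nt downstream (106 to 19829 nt).

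**Figure D3:**
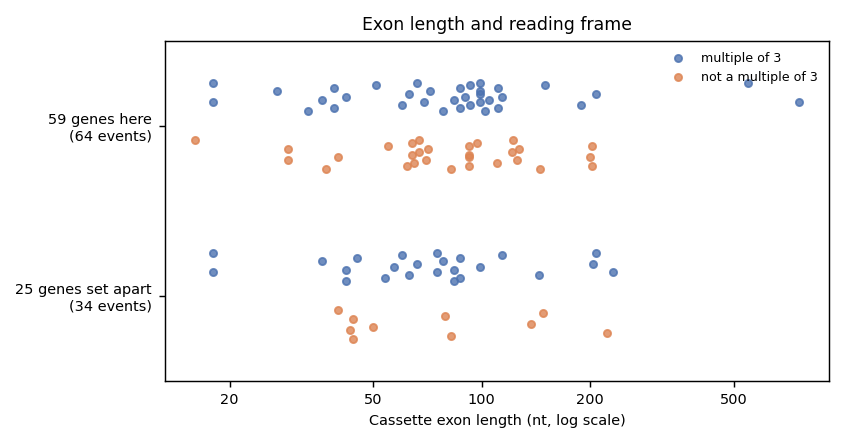
Length of the cassette exon in nt on a log scale, 1 point per event, for the 59 member genes and the 25 genes set aside. Blue marks lengths that are multiples of 3 and orange all others, and vertical scatter within a band carries no value. Of the members, 35 of 64 are blue, against 24 of 34, and the longest exons, 546 and 759 nt, are those of Ptpn13 and Ankhd1.

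CLIP tags were counted in the span of each event, from the exon before to the exon after the cassette exon, on the strand of the gene. ΔE2 forelimb also gave tags, and which tags come from Mbnl3 was not tested. Events of 1 gene were merged, which gave 59 spans of 516.857 kb in all. The WT libraries held 35413, 74123 and 124309 tags. The ΔE2 libraries 2 and 3 shared 33916 barcoded molecules, 83.7% of the one and 57.4% of the other, and were counted as 1 library with 65730 tags, beside 67279 in ΔE2 library 1. The WT libraries also shared molecules, up to 32.4% of a library, and were kept as 3. The combined C2C12 set held 677787 lines, which were counted as 550124 molecules. Forelimb tags measured 19 to 38 nt and C2C12 tags 26 to 30 nt, and how this bears on comparing them was not tested. Tag numbers in a span also follow how much of the RNA the cells made, which was not analysed here.

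CLIP tags were few in these spans. WT forelimb gave 195 tags in all, 21, 55 and 119 by library, and 42 of 59 spans had at least 1. ΔE2 forelimb gave 150 tags, with at least 1 in 35 spans, and C2C12 451 tags, with at least 1 in 53 spans. At least 10 tags were found in 7 spans in WT, 3 in ΔE2 and 16 in C2C12. These counts are not scaled to depth, and molecules shared by WT libraries enter them more than once. With each molecule counted once, WT had 164 and ΔE2 148, and at least 10 were found in 3 spans in either genotype. No tag in any set fell in the spans of Slc9a5, Nme6 and Cldn6. A count of 0 is taken here to allow up to 3 tags of the set, which is 15.4 tags per 1000000 in WT, 23.2 in ΔE2 and 5.45 in C2C12, counting error only. Spans of exons with higher inclusion in the knockout column held tags in WT in 24 of 34 genes, and spans of those with lower inclusion in 18 of 25.

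Per 1000000 tags of the library, the member spans took 593, 742 and 957 in WT, and 996 and 1263 in the libraries of the ΔE2 forelimb. The values of the genotypes did not overlap, and they also differed by up to 1.61 times within WT. The means were 764.1 ± 183.1 (SD, n = 3) in WT and 1129 ± 189 (SD, n = 2) in ΔE2. The difference of 365 tags per 1000000 had p = 0.2 in a two-sided exact permutation test, and 3 against 2 libraries cannot give less than 0.1. The 26 spans of the genes set aside took 794 ± 132 (SD, n = 3) in WT and 835 ± 88.2 (SD, n = 2) in ΔE2, with p = 0.9 in the same exact permutation test. Adjusted over these 2 tests (Benjamini-Hochberg), the exact permutation p-values were 0.4 and 0.9. In C2C12 the member spans took 820 tags per 1000000 (exact binomial interval 746 to 899, counting error only). Per kb of span the members took 1.15 to 1.85 tags per 1000000 in the WT libraries and 1.59 in C2C12, against 2.63 to 3.68 and 3.96 in the spans of the genes set aside. In each of the 6 sets of tags the members had the lower value. This comparison was not tested, since the spans of each set are the same in every library, and the RNA levels of the genes may differ. Genes were also set aside with earlier results of these data known, and how far that choice bears on these values was not tested.

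**Figure D4:**
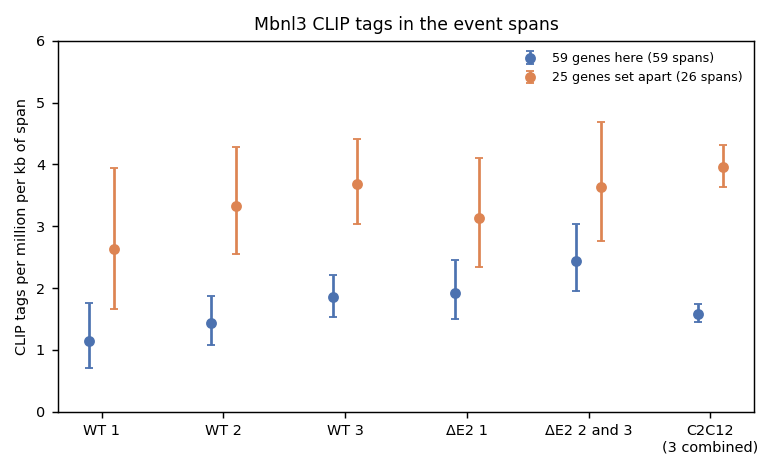
CLIP tags per 1000000 tags of the library and per kb of span, for the spans of the 59 member genes (blue) and of the 25 genes set aside (orange). Points are libraries, ΔE2 replicates 2 and 3 count as 1, C2C12 is the combined file, and bars are 95% exact binomial intervals that cover counting error only. The member spans lie lower in every set, between 1.15 and 2.44, against 2.63 to 3.96.

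Sec24b had the most WT tags of all members, in a span of 22.2 kb. It held 3, 5 and 11 tags in WT, 3 and 8 in ΔE2 and 32 in C2C12. Ptpn13 followed with 2, 4 and 10 tags in WT, 6 and 6 in ΔE2 and 6 in C2C12. Per 1000000 tags, the ΔE2 values of Sec24b lay on either side of the WT values, and those of Ptpn13 lay above them. Slain2 had 0, 4 and 10 tags in WT, 7 and 6 in ΔE2 and 31 in C2C12, with both ΔE2 values above the WT values once scaled. Vkorc1l1 had 2, 6 and 5 tags in WT, 5 and 4 in ΔE2 and 31 in C2C12. The Vkorc1l1 exon had lower inclusion in the knockout column, as did that of Slain2, while those of Sec24b and Ptpn13 had higher. U2af2 held 2, 3 and 6 tags in WT, 3 and 4 in ΔE2 and 6 in C2C12. The span of Bptf held 0, 3 and 7 tags in WT, 4 and 2 in ΔE2 and 24 in C2C12, and that of Zfp68 0, 4 and 6 tags in WT, 2 and 5 in ΔE2 and 9 in C2C12. Dlg1, the muscleblind target of the list, had 1, 2 and 6 tags in WT, 3 and 4 in ΔE2 and 16 in C2C12. Sema3f had 1, 3 and 5 tags in WT, 3 and 1 in ΔE2 and 2 in C2C12, and Max 2, 3 and 3 tags in WT, 2 and 0 in ΔE2 and 5 in C2C12. In 10 spans every WT library had a tag, but libraries shared molecules, as in Spen with 1, 1 and 1 tags from 2 molecules. The WT and ΔE2 values per 1000000 tags of the genes with the most WT tags mostly interleave, and with so few tags no span was tested alone.

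**Figure D5:**
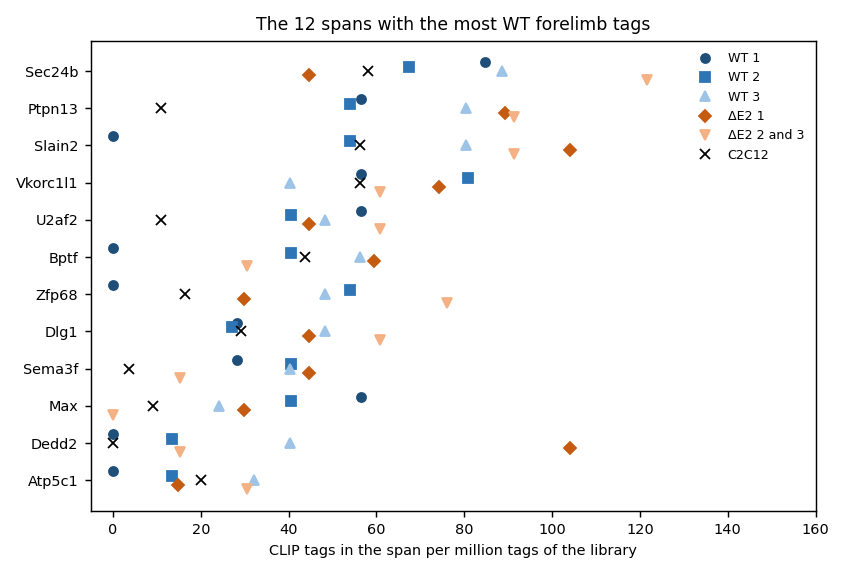
CLIP tags per 1000000 tags of the library in the 12 member spans with the most WT tags, 1 symbol per library. WT libraries are blue, ΔE2 libraries orange and C2C12 a black cross. Blue and orange symbols overlap in most rows, and the crosses of Sec24b, Ptpn13, U2af2, Sema3f, Max and Dedd2 lie at or below the lowest WT symbol.

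Forelimb and C2C12 were set side by side per span, with counting error only, since C2C12 is 1 combined set. The interval of the C2C12 value lay below that of WT forelimb in 3 spans, those of Ptpn13, Sema3f and Dedd2, and above it in none of the 59. Among the 26 spans of the genes set aside it lay below in 2 and above in 1, so that over all 85 spans the shares were 5.88% and 1.18%. Ptpn13 had 71.96 tags per 1000000 in WT forelimb (Poisson interval 39.3 to 121, each molecule counted once over the libraries) and 10.9 (4.003 to 23.7) in C2C12. Dedd2 had 0 of 550124 tags in C2C12. Spans with many C2C12 and few WT tags included those of Ep400 and Pphln1, each with 20 tags in C2C12 and 3 or 2 in WT. Further examples were Fxr1 with 19 and 3, and Luzp1 and Cep170, each with 15 and 1. These had overlapping intervals, and the C2C12 set was deeper by 2.83 times than the molecules of the WT libraries together.

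Tags were also placed within the spans. The listed values give the lengths of the introns and of the cassette exon, and the flanking exons only as a sum. A tag was thus classed as surely in the upstream intron, surely in the downstream intron, or not surely in either. This last class holds the exons and stretches of intron up to that sum in length. It covered all 7344 nt of the Spen span and 4494 nt of that of Ep400. Not surely in either intron lay 37 of 164 WT molecules (22.6%, interval 16.4% to 29.7%). ΔE2 had 30 of 148 there (20.3%, 14.1% to 27.7%) and C2C12 174 of 451 (38.6%, 34.1% to 43.2%). This class took 13.2% of the span length. The upstream introns held 40.2% of WT molecules on 50.9% of the length, and the downstream introns 37.2% on 36.0%. For tags not surely in either intron, the intervals of C2C12 and of either forelimb set did not overlap. A few spans gave many of these C2C12 tags, with 17 in Ep400, 16 in Slain2 and 14 in Fxr1. How many of them lie in an exon cannot be told. The molecules of a span share 1 RNA, so these intervals are too narrow.

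Overlapping tags of the 5 forelimb libraries were merged into clusters, 218 of them within the member spans. None was among the 276 clusters of the genome with enough tags to be tested between WT and ΔE2 with edgeR, of which 62 (22.5%) were called at an adjusted p of at most 0.05. It was 0 of 238 with WT libraries 2 and 3 joined (72 at an unadjusted p under 0.05), 16 without WT library 2 and 22 without WT library 3. With none tested by edgeR or DESeq2, the count of 0 calls among members says nothing of a difference. With no filter on low counts, edgeR tested all 218, called 0 and gave an unadjusted p under 0.05 to 1, a cluster in Rad18 with 0 tags in WT and 3 in the joined ΔE2 library (edgeR adjusted p = 0.610). The largest member cluster held 15 tags and lay in Slain2, at chr5:73356721-73356765 on the plus strand, in the intron 139 to 591 nt upstream of the 78-nt exon. Its tags numbered 0, 2 and 6 in WT and 4 and 3 in ΔE2, so it was present in both genotypes. The next, with 10 tags, lay in Zfp68, at chr5:139056836-139056908 on the minus strand, in the intron 721 to 900 nt downstream of the cassette exon. WT had 0, 4 and 4 of its tags, and either ΔE2 library 1. Fxr1 had a cluster of 6 tags that could not be placed in an exon or intron, and Bptf one of 5 tags in the intron 2987 to 3383 nt downstream. A cluster of 4 tags in U2af2 lay 261 to 528 nt downstream of its 64-nt exon.

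Across the 59 spans, longer spans held more WT tags (Spearman rho 0.46 of length in kb and tags). The size of the change in inclusion had a rho of -0.30 with WT tags per kb and of -0.12 with C2C12 tags per kb. These are descriptions over spans that share the same libraries.

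Gene lists drawn up for the tissue and the protein family held few of the members. Dlg1 was the 1 member among 49 known muscleblind targets, and Bptf and Ep400 were the 2 among 43 genes of transcription and chromatin. No member was among 18 genes of muscle contraction, 33 of vesicle traffic and coats or 26 kinases and phosphatases. None of the genes set aside was on any of these lists. The lists name selected genes and hold relatives of some members, such as Sec24a but not Sec24b. A count of 0 is therefore no absence of the function, since 11 member genes were grouped under membrane traffic and protein turnover. Nor does the count of 1 among 49 say that the other members are not muscleblind targets. Of 27 markers of forelimb tissues 0 were members, while Acan, Col11a2 and Col2a1 of cartilage and Dysf of muscle were among the genes set aside. The tissue label could not be checked on the members for this reason.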

How the data were processed

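For RNA-seq the submitters' processing notes name mm9, TopHat 1.3.2 and Bowtie. The deposited exon table gives estimated counts of tags per isoform and junction, per the file headers, as 1 total per genotype. The authors' odds ratio and the p-values of Fisher's exact test, raw and adjusted, stand beside them, per the file headers. Exon and intron lengths were read from the offsets in the event names. For CLIP they name mm9 and Novoalign. Their deposited score was not used, and every deposited line was counted as a tag, with a molecule defined by position, strand and a 5-base barcode.

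The recomputed change in inclusion matched the deposited change within 0.0005 for all 98 events. The cluster test was the quasi-likelihood test of edgeR 4.0.16 (R 4.3.3), after TMM scaling, on clusters kept by filterByExpr at a minimum of 10, with Benjamini-Hochberg adjustment, checked on simulated data, and with DESeq2 1.42.0. Shares were tested by exact permutation in Python 3.11.15. The deposited coordinates are printed as listed. Nothing in the labels says which samples share a litter or day. Members, lists, function groups and alternatives were chosen with earlier results of these data known. Named with their inclusion and its interval are the 12 largest gains and losses, the 5 smallest changes, the 10 spans with the most WT tags, genes with several events and members of the lists. The remaining members are given by their inclusion, and any further detail on a member was chosen after their values were seen. Values of 1 member are not reported here, although it is part of the counts.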

Additional observations from a re-analysis of the deposited data

How the results depend on the processing

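The 36 gains and 28 losses became 35 and 28 with at least 20 tags in each group, and 34 and 25 with 1 event per gene. Adding 0.5 to each count left 64 of 64 changes within their intervals. With the downstream junction alone, an alternative chosen after seeing the data, 1 change reversed, that of Armcx1, to -0.0245 points. In 23 events inclusion then left the interval of the mean of both junctions, and in 25 with the upstream junction alone, each with the direction kept. Adding exon-body tags and summing the junctions moved 63 events beyond their intervals, with 45 of 64 changes still at least 10 points. The percentage of exon lengths that are multiples of 3 ran from 54.0 to 55.6. Spans with WT tags numbered 24 with at least 3 and 7 with at least 10 tags, and 31 to 40 when a WT library was left out. The difference between ΔE2 and WT in tags per 1000000 in member spans stayed positive under every alternative run, from 279.6 to 498.6 when leaving out 1 library, and 404.9 (exact permutation p = 0.1) with molecules found in 1 library only. The replicate block over the 6 libraries as labelled gave 427.1 (exact permutation p = 0.25), and 0 called clusters in member spans, with 64 of 212 called over the genome. Same-numbered libraries had correlations of -0.32, -0.20 and -0.24 over 212 clusters. These values depend on each other, since deviations were taken from the mean of each genotype and ΔE2 libraries 2 and 3 share most molecules. They cannot decide whether the numbers mark pairs, and the numbers were not taken as pairs. Called clusters in member spans stayed at 0 in all alternatives, none of which but the one with no filter tested any. Over the genome the 62 called clusters became 35 with DESeq2, 74 with library size in place of TMM, 85 with 6 libraries as labelled, 0 with WT libraries 2 and 3 joined, 19 with no filter and 16 to 90 when leaving out 1 library (16 without WT library 2, 22 without WT library 3). In WT, 17 of 59 spans had 0 tags, and how far depth or the RNA level bears on this was not tested. The inclusion values have no spread between embryos, so whether a single embryo decides a change was not tested.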

Other observations

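The median inclusion of the member exons was 45.9% in WT and 46.5% in the knockout column. In WT it ran from 6.29% in Def8 to 98.5% in Cldn6. Inclusion was under 50% in WT at 35 of the 64 events. Microexon-sized members included the 18-nt exons of Mon2 and Lphn1, whose inclusion differed in opposite directions (20.1% and 4.76% for Mon2, 80.1% and 93.6% for Lphn1, in WT and the knockout column). Tag numbers by function in WT forelimb were 53 in the nuclear group, 49 in the cytoskeleton group, 32 in membrane traffic, 22 in metabolism, 17 in RNA processing, 9 in signalling and 13 in the rest.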
